A study of Mus musculus with 20 samples.

Results

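A set grouped as interferon-inducible ADP-ribosyltransferases and their partners was followed in BV-2 cells, an immortalised line of mouse microglia, through the read counts of 8 genes: *Parp8*, *Parp9*, *Parp10*, *Parp11*, *Parp12*, *Parp14*, *Dtx3l* and *Zc3hav1*. They were chosen by symbol from the 55487 Ensembl identifiers of the count table, and all 8 were among the 12799 genes that passed the filter on low counts and were tested. The 20 cultures, all wild type, formed 4 groups of 5: young cells at low passage and aged cells from long-term cultivation, each left untreated or given 100 ng/ml lipopolysaccharide (LPS) for 6 hours. LPS is a component of the bacterial outer membrane that activates Toll-like receptor 4. BV-2 is a single line, and the aged cultures descend from long-term cultivation of that line, so that age here is time in culture and not the age of an animal. According to the study, aged cells were frozen after that cultivation and used as aliquots. Whether these came from separate long-term cultivations is not given, so the tests may measure spread between cultures of the same aged stock. The study asked how the aged cells differed from their young counterparts at rest and after LPS.

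PARP enzymes transfer ADP-ribose from NAD+ to proteins or nucleic acids. The family members studied here mostly attach single ADP-ribose units, whereas the DNA repair enzyme *Parp1* builds chains. Type I interferon, which macrophages and microglia secrete after Toll-like receptor 4 is triggered, induces many of these genes through its receptor and JAK kinases, and several of their products restrict viruses. No culture was given interferon here, so induction by it was not tested for any member. *Parp9* encodes a macrodomain protein that works in a complex with the ubiquitin ligase encoded by *Dtx3l*. *Zc3hav1* encodes the zinc-finger antiviral protein (ZAP, also named PARP13), which lacks catalytic activity and binds CpG-rich RNA.

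In the mouse genome GRCm38 (GENCODE annotation M21), 3 of the genes lie near each other on chromosome 16: *Parp14* at chr16:35832874-35871544 and *Dtx3l* at chr16:35926511-35939151 on the minus strand, and *Parp9* at chr16:35938470-35972605 on the plus strand. *Dtx3l* and *Parp9* start head to head and overlap by 682 bases, of which 458 are exonic in both, equal to 9.40% of the merged exon length of *Parp9* and 8.0% of that of *Dtx3l*. Whether the counting used strand is not given in the sources used here, so reads from that stretch may not be told apart. Chromosome 6 carries *Zc3hav1* (chr6:38305286-38354603, minus strand), *Parp12* (chr6:39086410-39118349, minus strand) and *Parp11* (chr6:127446840-127494261, plus strand). *Parp10* lies at chr15:76231174-76243441 and *Parp8* at chr13:116854820-117025537, both on the minus strand. *Parp10* shares 4.80% of its exon length with *Plec*, and *Parp14* shares 1.18% with the gene model *Gm49730*, in each case on the same strand.

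The RefSeq promoter table (GRCm38.p6, 250 bases before to 50 bases after each start) held windows for 5 of the 8 genes, with 2 windows for *Parp11*. *Parp9*, *Parp10* and *Parp14* had no entry. Both strands were searched for the core of the interferon-stimulated response element (GAAANNGAA), for the gamma-activated site (TTCNNNGAA) and for a short form of the kappaB site (GGGNNTTCC). The first *Parp11* window held the response element core on the opposite strand, beginning at position -43 from the start site, and a gamma-activated site that overlaps it, beginning at position -37. Of the 32851 windows in the table, 8.56% held the response element core, 8.3% the gamma-activated site and 5.82% the kappaB form. The windows of *Zc3hav1*, *Parp12*, *Parp8* and *Dtx3l* held none of these letters, which says nothing about binding elsewhere. Stretches upstream of annotated exons are shown for a pair of genes, because *Parp11* is the gene whose window held a match and *Zc3hav1* the most abundant of the 8 at rest. Both are printed 5′ to 3′ on the gene's strand, *Parp11* from chr6:127446590-127446839 (plus strand) and *Zc3hav1* from chr6:38354604-38354853 (minus strand), with the response element core in capitals.
Parp11: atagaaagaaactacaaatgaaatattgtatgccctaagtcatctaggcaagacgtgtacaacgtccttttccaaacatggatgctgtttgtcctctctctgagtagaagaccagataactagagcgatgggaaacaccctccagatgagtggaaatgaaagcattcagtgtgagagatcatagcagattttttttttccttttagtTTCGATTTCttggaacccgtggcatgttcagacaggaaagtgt
Zc3hav1: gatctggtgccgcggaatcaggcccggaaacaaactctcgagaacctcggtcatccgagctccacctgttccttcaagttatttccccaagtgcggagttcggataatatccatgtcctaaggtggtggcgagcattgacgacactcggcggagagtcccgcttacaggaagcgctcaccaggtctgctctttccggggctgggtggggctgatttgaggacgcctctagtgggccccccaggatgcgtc

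Total counts ranged from 11371508 to 16829292 per library, and 3 counts, taken as the floor of detection, equalled 0.165 to 0.296 CPM, the count scaled to library size. All 8 genes were far above it in every library, the lowest count being 73 for *Parp14* in an aged untreated culture. The 10 markers fixed for microglia and macrophages summed to between 2110 and 3760 CPM in every library. Of these, *Cx3cr1* and *P2ry12*, which mark resting microglia, were at about 1 CPM or lower on average. *Tmem119*, another such marker, averaged 17.8 CPM in young and 18 CPM in aged untreated cells, and 2.31 and 3.48 CPM with LPS. Summed levels of the lists for neurons, astrocytes, oligodendrocytes, fibroblasts and endothelium stayed at or under 1.78 CPM, with *Syt1*, *Snap25*, *Map2*, *Aqp4*, *Aldh1l1*, *Mog*, *Col1a2*, *Pdgfra*, *Dcn* and *Cldn5* at 0 in every library. In these bulk samples, fewer responding cells and less RNA per cell cannot be told apart.

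All 8 genes rose with LPS in both ages, and all 8 were lower in aged than in young cells after LPS. In young cells the increase ran from 2.41-fold for *Parp11* to 54.3-fold for *Parp14*, and in aged cells from 1.52-fold to 59.2-fold for the same genes. The call, here and below, is a Benjamini-Hochberg adjusted p below 0.05 in edgeR's quasi-likelihood test over all genes tested. Among all genes, 31.2% were called higher and 33.5% lower with LPS in young cells, and 27.5% higher and 26.9% lower in aged cells. Members' median log2 fold change was 2.95 in young and 2.32 in aged cells, against -0.01 and 0.00 over all genes tested. The comparisons here and below share groups of cultures and are therefore not independent of each other. No member was called lower with LPS by edgeR, at an unadjusted p below 0.05 or by DESeq2.

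The plot of every library's level shows these steps gene by gene.

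**Figure D1:**
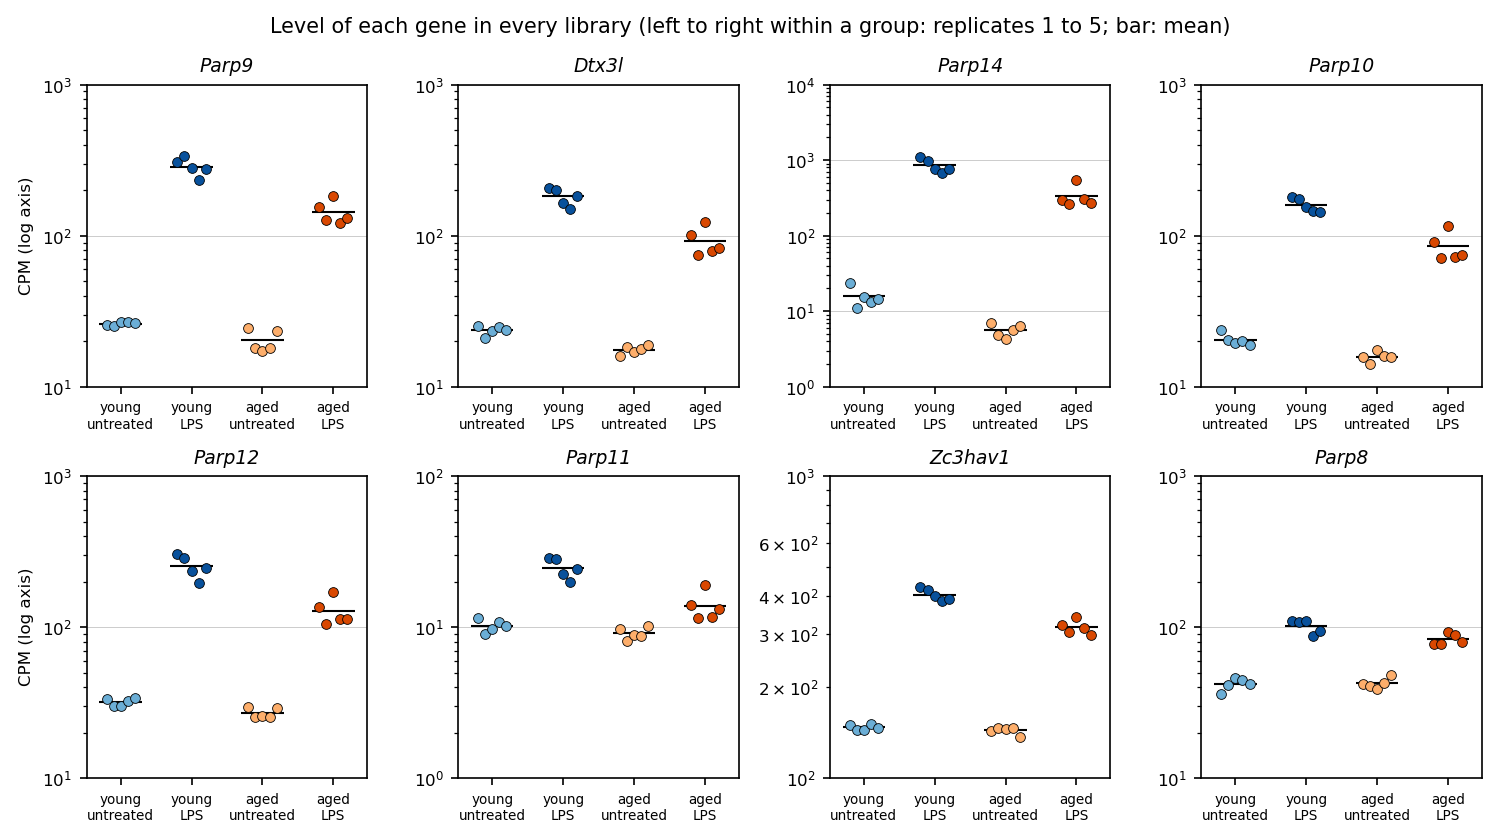
Level of each of the 8 genes in CPM (log axis) in every library; each point is a culture, coloured by group, and the bar is the group mean of 5. In *Parp14* the young LPS points lie between 668 and 1085 CPM and the aged LPS points between 260 and 546 CPM, and in all 8 panels the third aged LPS culture is the highest of its group.

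The summed level of the 8 genes was 318 ± 10.2 CPM (SD, n = 5) in young untreated cells and 282 ± 6.33 CPM in aged untreated cells, and it reached 2264 ± 317 CPM and 1196 ± 230 CPM under LPS. Its make-up shifted with LPS. *Zc3hav1* held 46.4% of the sum in young and 51.1% in aged untreated cells, but 18.1% and 26.9% under LPS. *Parp14* held 4.92% and 2.0% at rest and 37.3% and 27.4% under LPS, so that it held the largest part of the sum in young treated cells and about as much as *Zc3hav1* in aged treated cells.

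Between genes, levels were compared per kilobase of merged exon length. At rest in young cells, *Zc3hav1* had the highest level (22.6 ± 0.499 CPM per kilobase, SD, n = 5), followed by *Parp12* (8.01 ± 0.475), and neither overlapped the next gene in any library. *Parp9* (5.38), *Parp10* (4.79), *Parp8* (4.74) and *Dtx3l* (4.12 CPM per kilobase) followed with overlapping neighbours, and *Parp14* (1.69) and *Parp11* (1.45) were lowest and overlapped each other. With LPS in young cells the level of *Parp14* was the highest on average, at 91.3 ± 18.6 CPM per kilobase, and overlapped that of *Parp12* (63.6 ± 10.8), which overlapped *Zc3hav1* (62.2) and, through it, *Parp9* (58.8). *Parp10* (37.3) and *Dtx3l* (31.7) overlapped each other, while *Parp8* (11.5) and *Parp11* (3.51 CPM per kilobase) stood apart below them. In aged untreated cells *Zc3hav1* and *Parp12* again came first, *Parp8* (4.79) stood above *Parp9* (4.17) with overlapping libraries, and *Parp14* came last, at 0.609 ± 0.116 CPM per kilobase, without overlap with *Parp11* at 1.30. In aged cells given LPS, *Zc3hav1* (48.5 ± 2.62) came first and *Parp14* (36.0 ± 12.8 CPM per kilobase) second, and their libraries overlapped.

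*Parp14*, a macrodomain-containing mono-ADP-ribosyltransferase, changed most. Its level in young untreated replicates 1 to 5 was 23.6, 11.2, 15.6, 13.4 and 14.7 CPM, and in the aged untreated replicates 7.05, 4.91, 4.34, 5.71 and 6.33 CPM. Every aged culture was below every young one. With LPS, young cultures reached 1085, 973, 768, 668 and 756 CPM. The aged ones reached 299, 260, 546, 303 and 267 CPM, so these groups did not overlap either, although aged replicate 3 stood well above its group. *Parp14* rose by 5.76 on the log2 scale in young (SE 0.231, edgeR adjusted p = 1.48e-15) and by 5.89 in aged cells (SE 0.246, edgeR adjusted p = 5.56e-15), higher in 5 of 5 batches each time. Aged cells held 2.77-fold less of it at rest (log2 fold change -1.47, SE 0.253, edgeR adjusted p = 6.16e-04) and 2.54-fold less under LPS (log2 fold change -1.34, SE 0.185, edgeR adjusted p = 1.07e-05).

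*Parp9* was at 25.6, 25.4, 26.8, 26.8 and 26.6 CPM in young untreated replicates 1 to 5. In aged untreated cultures it was at 24.6, 18.0, 17.4, 18.1 and 23.4 CPM, in all 5 below the young range, with replicates 1 and 5 close to it. LPS brought the young cultures to 307, 336, 281, 233 and 276 CPM and the aged ones to 154, 127, 183, 122 and 131 CPM, again without overlap. The response was 10.9-fold in young cells (log2 fold change 3.45, SE 0.120, edgeR adjusted p = 1.38e-16) and 7.07-fold in aged cells (log2 fold change 2.82, SE 0.120, edgeR adjusted p = 7.15e-15). After LPS the aged cells had 2.00-fold less *Parp9* (log2 fold change -0.999, SE 0.107, edgeR adjusted p = 6.66e-07).

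Its partner *Dtx3l* stood at 25.2, 20.9, 23.5, 24.8 and 23.6 CPM in young and at 16.0, 18.3, 17.1, 17.7 and 18.8 CPM in aged untreated cultures. All 5 aged values were below all 5 young values. Under LPS the young replicates had 207, 201, 165, 151 and 184 CPM and the aged replicates 101, 74.5, 123, 79.4 and 83.4 CPM. These groups did not overlap, with aged replicate 3 nearest to the young range. *Dtx3l* rose 7.69-fold in young (log2 fold change 2.94, SE 0.117, edgeR adjusted p = 1.34e-15) and 5.25-fold in aged cells (log2 fold change 2.39, SE 0.118, edgeR adjusted p = 9.26e-14), and was 1.97-fold lower in aged cells after LPS (log2 fold change -0.98, SE 0.107, edgeR adjusted p = 8.56e-07).

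*Parp12*, a mono-ADP-ribosyltransferase with CCCH zinc fingers and antiviral activity, was at 33.7, 30.0, 29.9, 32.5 and 33.8 CPM in young and at 29.5, 25.4, 26.0, 25.3 and 29.2 CPM in aged untreated replicates 1 to 5. The groups lay next to each other without overlap. LPS gave 306, 286, 235, 196 and 247 CPM in young and 136, 106, 172, 112 and 113 CPM in aged cultures, where all 5 aged values were below the lowest young one. The gene rose 7.94-fold in young (log2 fold change 2.99, SE 0.125, edgeR adjusted p = 2.89e-15) and 4.73-fold in aged cells (log2 fold change 2.24, SE 0.124, edgeR adjusted p = 7.01e-13). *Parp10*, a mono-ADP-ribosyltransferase with ubiquitin-interacting motifs, had much the same course: 18.9 to 23.7 CPM in young and 14.1 to 17.5 CPM in aged untreated cultures, and 144 to 181 CPM and 71.2 to 116 CPM under LPS. It rose 7.78-fold in young (log2 fold change 2.96, SE 0.117, edgeR adjusted p = 1.22e-15) and 5.37-fold in aged cells (log2 fold change 2.43, SE 0.118, edgeR adjusted p = 7.43e-14). The aged cells had 1.99-fold less *Parp12* and 1.87-fold less *Parp10* after LPS (edgeR adjusted p = 1.61e-06 and 1.87e-06).

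*Parp11*, a mono-ADP-ribosyltransferase with a WWE domain, had the lowest level per kilobase of the 8 in 3 of the 4 groups and the smallest response, though close to that of *Parp8* in young cells. Young untreated replicates 1 to 5 had 11.5, 9.01, 9.66, 10.8 and 10.1 CPM, and aged ones 9.77, 8.08, 8.91, 8.73 and 10.3 CPM, with overlap. With LPS the values were 28.8, 28.0, 22.5, 19.8 and 24.2 CPM in young and 13.9, 11.6, 19.0, 11.6 and 13.1 CPM in aged cultures. The highest aged value, in replicate 3, came just under the lowest young value, in replicate 4. *Parp11* rose 2.41-fold in young (log2 fold change 1.27, SE 0.125, edgeR adjusted p = 6.94e-09) and 1.52-fold in aged cells (log2 fold change 0.60, SE 0.129, edgeR adjusted p = 4.25e-04), and was 1.77-fold lower in aged cells after LPS (log2 fold change -0.83, SE 0.123, edgeR adjusted p = 2.58e-05).

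*Zc3hav1* varied least between cultures, with a coefficient of variation of 2.2% in young and 2.89% in aged untreated cells. Its level there was 150, 144, 145, 152 and 147 CPM in young and 144, 147, 146, 147 and 137 CPM in aged replicates 1 to 5, which overlapped. After LPS it was 428, 419, 401, 386 and 392 CPM in young and 321, 304, 342, 314 and 298 CPM in aged cultures, without overlap. The increase was 2.75-fold in young (log2 fold change 1.46, SE 0.0431, edgeR adjusted p = 1.04e-17) and 2.19-fold in aged cells (log2 fold change 1.13, SE 0.0428, edgeR adjusted p = 9.70e-16). Aged cells held 1.28-fold less after LPS (log2 fold change -0.36, SE 0.0421, edgeR adjusted p = 1.83e-06).

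*Parp8*, a less studied mono-ADP-ribosyltransferase, ranged from 35.9 to 45.9 CPM in young and from 38.9 to 48.1 CPM in aged untreated cultures. LPS raised it to between 87.1 and 110 CPM in young cells, a 2.42-fold change (log2 fold change 1.28, SE 0.0806, edgeR adjusted p = 3.46e-12), and to between 77.5 and 93.0 CPM in aged cells, a 1.96-fold change (log2 fold change 0.97, SE 0.0803, edgeR adjusted p = 7.02e-10). Its aged and young LPS groups overlapped. The difference of 1.23-fold was lower in aged cells in 4 of 5 batches (log2 fold change -0.29, SE 0.0783, edgeR adjusted p = 0.00686) and lost its call without batch 2 (adjusted p = 0.0871).

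Without LPS, *Parp14* and *Dtx3l* were lower in aged than in young cells, and the other 6 genes were not called. Among all genes tested, 3.71% were called higher and 7.81% lower in this comparison. *Dtx3l* differed by 1.34-fold (log2 fold change -0.42, SE 0.122, edgeR adjusted p = 0.0267). *Parp9* (log2 fold change -0.37, 95% confidence interval -0.63 to -0.12, edgeR adjusted p = 0.052) and *Parp10* (log2 fold change -0.37, interval -0.63 to -0.11, edgeR adjusted p = 0.0551) came close to the threshold. Both were lower in 5 of 5 batches with no overlap between the groups, as was *Parp12* (log2 fold change -0.24, interval -0.50 to 0.02). The share of all genes tested without such overlap was not counted, at rest or with LPS, so these separations are descriptions only. Intervals for *Parp11* (-0.43 to 0.12), *Zc3hav1* (-0.12 to 0.06) and *Parp8* (-0.16 to 0.18) spanned 0. Members had a median log2 fold change of -0.31 against -0.01 over all genes.

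These resting differences depended on the fit. Every group has 1 culture in each batch, and with the replicate number as a block *Parp9* (edgeR adjusted p = 0.0339) and *Parp10* (edgeR adjusted p = 0.0277) were called as well, which makes 4 of 8. DESeq2 called the same number. *Dtx3l* lost its call without young untreated replicate 1 (edgeR adjusted p = 0.0614) or 3 (0.0527) and without aged untreated replicate 1 (0.0609) or 4 (0.0545). *Parp9* gained a call without aged untreated replicate 1 (edgeR adjusted p = 0.0257) or 5 (0.0418), the cultures where it was highest, and *Parp10* without aged untreated replicate 3 (0.0481). No member was called higher in aged untreated cells by edgeR, at an unadjusted p below 0.05 or by DESeq2.

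After LPS, all 8 genes were called lower in aged than in young cells, and none was called higher by edgeR, at an unadjusted p below 0.05 or by DESeq2. Over all genes tested, 14% were called higher and 15% lower. Members had a median log2 fold change of -0.94, against 0.01 over all genes. *Parp9*, *Parp12*, *Dtx3l*, *Parp10* and *Parp11* differed by 1.77-fold to 2.00-fold, *Parp14* by more, and *Zc3hav1* and *Parp8* by less. Lower levels in aged cells were seen in 5 of 5 batches for every member but *Parp8*.

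**Figure D2:**
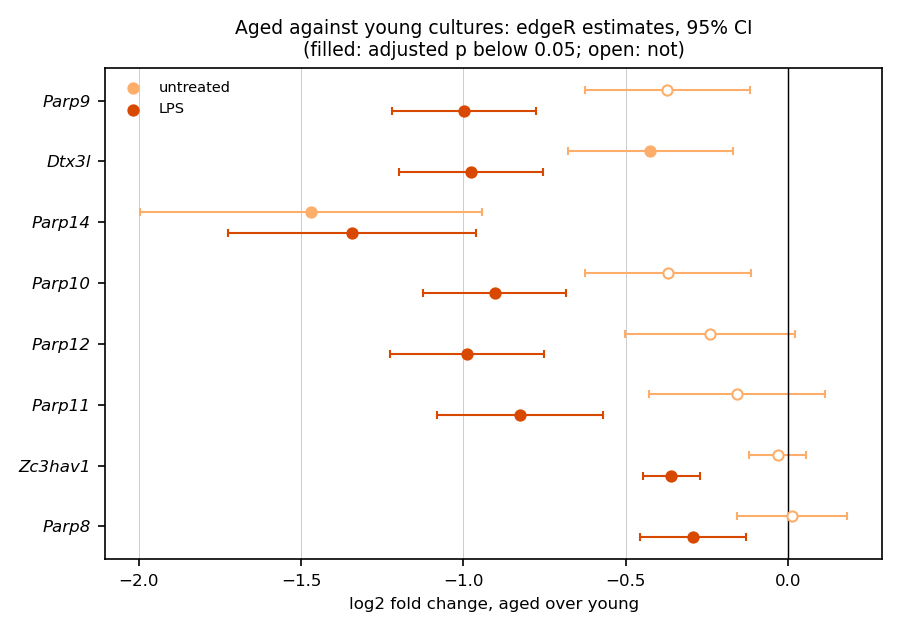
Log2 fold change of aged over young cultures for each gene, untreated (light) and with LPS (dark), with 95% confidence intervals from edgeR (5 cultures per group; filled points have an adjusted p below 0.05). With LPS all 8 estimates lie between -1.34 and -0.29, and without LPS only *Parp14* and *Dtx3l* are filled.

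Whether the LPS response itself differed with age was tested as the interaction of age and treatment. The responses of *Zc3hav1*, *Parp12*, *Parp9*, *Parp11* and *Dtx3l* were smaller in aged cells, 5 of the 8. Of all genes tested, 4.12% had a call toward a higher and 2.27% toward a lower value of this difference. On the log2 scale the difference was -0.33 for *Zc3hav1* (SE 0.0599, edgeR adjusted p = 0.00181), -0.75 for *Parp12* (SE 0.170, edgeR adjusted p = 0.00924) and -0.63 for *Parp9* (SE 0.162, edgeR adjusted p = 0.0219). It was -0.67 for *Parp11* (SE 0.180, edgeR adjusted p = 0.027) and -0.55 for *Dtx3l* (SE 0.162, edgeR adjusted p = 0.0431). *Parp10* (-0.53, 95% confidence interval -0.87 to -0.20, edgeR adjusted p = 0.0515) and *Parp8* (-0.30, interval -0.54 to -0.07, edgeR adjusted p = 0.12) missed the threshold. *Parp14* gave 0.13 with an interval from -0.52 to 0.77 (edgeR adjusted p = 0.893). Its level was 2.77-fold lower in aged cells at rest and 2.54-fold lower with LPS. Members had a median of -0.54, against 0.02 over all genes. No member was called toward a higher value by edgeR, at an unadjusted p below 0.05 or by DESeq2.

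**Figure D3:**
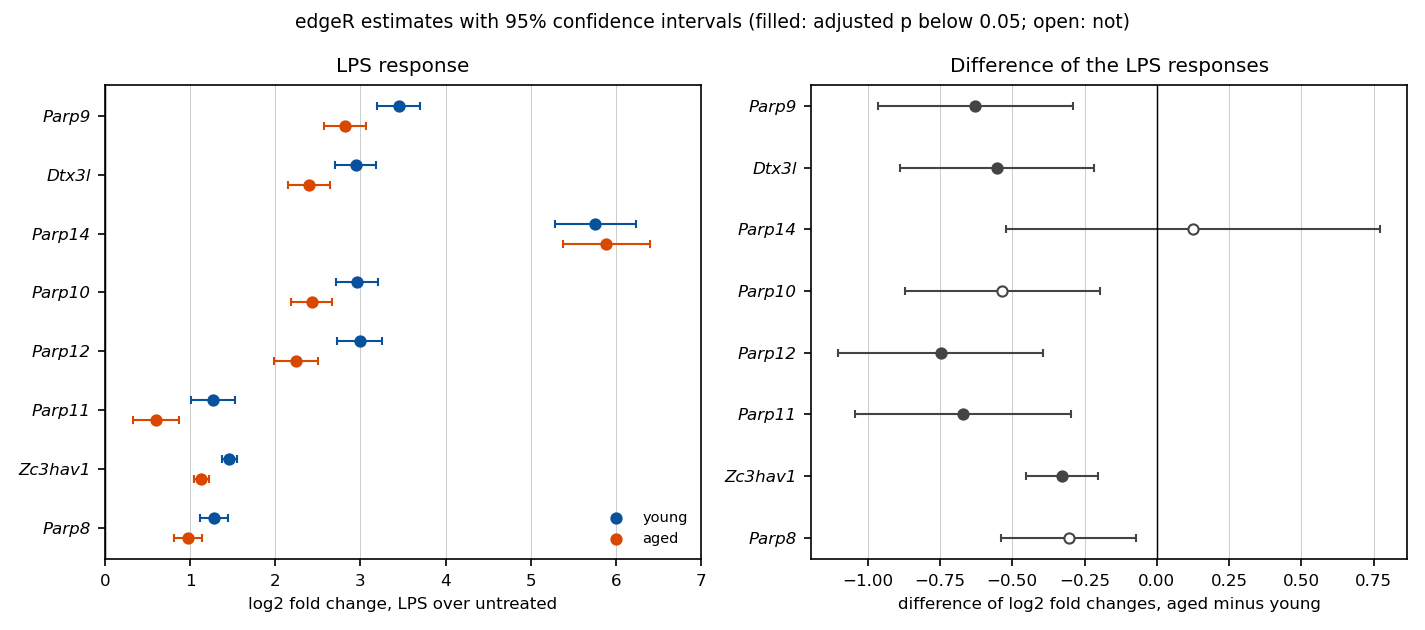
Left, log2 fold change of LPS over untreated in young (blue) and aged (orange) cultures; right, the difference of these responses, aged minus young, both with 95% confidence intervals from edgeR (filled points have an adjusted p below 0.05). *Parp14* has the largest response in both ages and a difference of 0.13 whose interval spans 0, while the other 7 differences lie below 0.

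The interaction calls were sensitive to single cultures and batches. With the replicate block *Parp10* was called too (edgeR adjusted p = 0.0209). *Parp10* was also called without aged LPS replicate 3 (edgeR adjusted p = 0.00137), young LPS replicate 4 (0.0388) or 5 (0.0455) or young untreated replicate 1 (0.0367), and *Parp8* without young LPS replicate 4 (0.0427). *Dtx3l* kept its call only when the culture left out was young untreated replicate 1, young LPS replicate 3 or 4, aged untreated replicate 1, or aged LPS replicate 1 or 3. Without any 1 of the other 14 its adjusted p ran from 0.054 to 0.0884. *Parp11* lost its call without young untreated replicate 2 or 3, young LPS replicate 2, aged untreated replicate 5 or aged LPS replicate 2 or 4 (adjusted p 0.0504 to 0.0598), which left 3 calls in each case. Without batch 2 no member was called, with adjusted p from edgeR of 0.0535 for *Zc3hav1*, 0.114 for *Parp12*, 0.162 for *Parp9*, 0.198 for *Parp11* and 0.346 for *Dtx3l*. The differences were then -0.29, -0.64, -0.55, -0.56 and -0.39, in the same order. Without batch 1 only 2 members were called and without batch 5 only 1. *Parp9* lost its call in both cases (edgeR adjusted p = 0.104 and 0.129). The sign of *Parp14* turned without young untreated replicate 1 (-0.06) or aged LPS replicate 3 (-0.12).

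Cultures within a group tended to be high or low for several members together. Aged LPS replicate 3 had the highest level of its group for all 8 genes, and aged LPS replicate 2 the lowest for 6. Young LPS replicate 1 was the highest for 7 of the 8 and young LPS replicate 4 the lowest for 7. *Stat2* and *Irf7*, which encode transcription factors of the interferon response, were also highest in aged LPS replicate 3. *Irf7* was at 87.5, 67.1, 158, 80.4 and 71.5 CPM in aged LPS replicates 1 to 5 and at 271, 236, 200.2, 136 and 188 CPM in the young ones, where replicate 1 was again the highest and replicate 4 the lowest. *Ifnb1*, which encodes interferon beta, had 0 counts in all 10 untreated cultures, 1 to 7 counts in young and 0 to 4 counts in aged treated cultures, too few to pass the filter. Whether the extent of interferon signalling accounts for these shared deviations was not tested.

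The neighbours *Parp9* and *Dtx3l* did not keep a fixed proportion. Per library, the log2 ratio of *Parp9* to *Dtx3l* CPM (0.5 CPM added to each) was 0.02, 0.27, 0.19, 0.11 and 0.17 in young untreated and 0.56, 0.74, 0.77, 0.62 and 0.58 in young LPS replicates 1 to 5. Every treated young culture was above every untreated one. In aged cells the ratio was 0.60, -0.02, 0.02, 0.03 and 0.31 at rest and 0.61, 0.76, 0.57, 0.61 and 0.65 with LPS. Aged untreated replicate 1 was the exception that reached the treated range, its *Parp9* being the highest and its *Dtx3l* the lowest of the group. The mean ratio rose by 0.50 in young (exact two-sided permutation p = 0.00794, adjusted p = 0.0317 over 4 comparisons, n = 5 per group) and by 0.45 in aged cells (exact p = 0.0159, adjusted p = 0.0317). The smallest p this design allows is 0.00794. Aged minus young was 0.04 at rest and -0.01 with LPS (exact permutation test, adjusted p = 0.833 for both). An exact paired sign-flip permutation test over the 5 batches cannot go below p = 0.0625, and its adjusted p was 0.125 for both LPS comparisons. In aged cells the adjusted p became 0.0635 without any 1 of aged untreated replicates 2, 3, 4 and 5 or of aged LPS replicates 1, 2, 4 and 5, and stayed at 0.0317 without aged untreated replicate 1 or aged LPS replicate 3.

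Likeness of course over the 20 libraries was measured as the root mean square difference between log2 CPM profiles, each centred on its own mean, and is given as a description. Profiles were not scaled, so genes with changes of unlike size lie apart even where their course is the same. The profile nearest to that of *Dtx3l* among all genes tested was *Parp12* (0.11), then *Parp10* (0.113), which lie on chromosomes 6 and 15, and *Dtx3l* was in turn the nearest to both of them. *Parp9*, with which *Dtx3l* shares its start, was at 0.276, and its own nearest genes were *Tor3a* (0.155), *Trex1* (0.175) and *Slc2a6* (0.187). *Zc3hav1* and *Parp8* formed the next closest pair of members at 0.147. *Parp11* was nearest to the immunoproteasome gene *Psmb10* (0.0927), to *Samhd1* (0.125) and to the proteasome activator gene *Psme1* (0.137). *Parp14* had no close neighbour among the members, all at 1.41 or more. Its log2 CPM also varied most, with an SD of 3.0 over the libraries against 0.577 to 1.62 for the other members. The genes nearest to *Parp14* were *Ddx58* (0.284), which encodes the RNA sensor RIG-I, *Cd40* (0.319) and *Dhx58* (0.361). The nearest genes to *Parp8* were *Mapre2*, *Denr* and *Plagl2* (0.0978 to 0.109), and those to *Zc3hav1* were *Igf2bp2*, *Itpripl2* and *Aff1* (0.0767 to 0.0838).

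**Figure D4:**
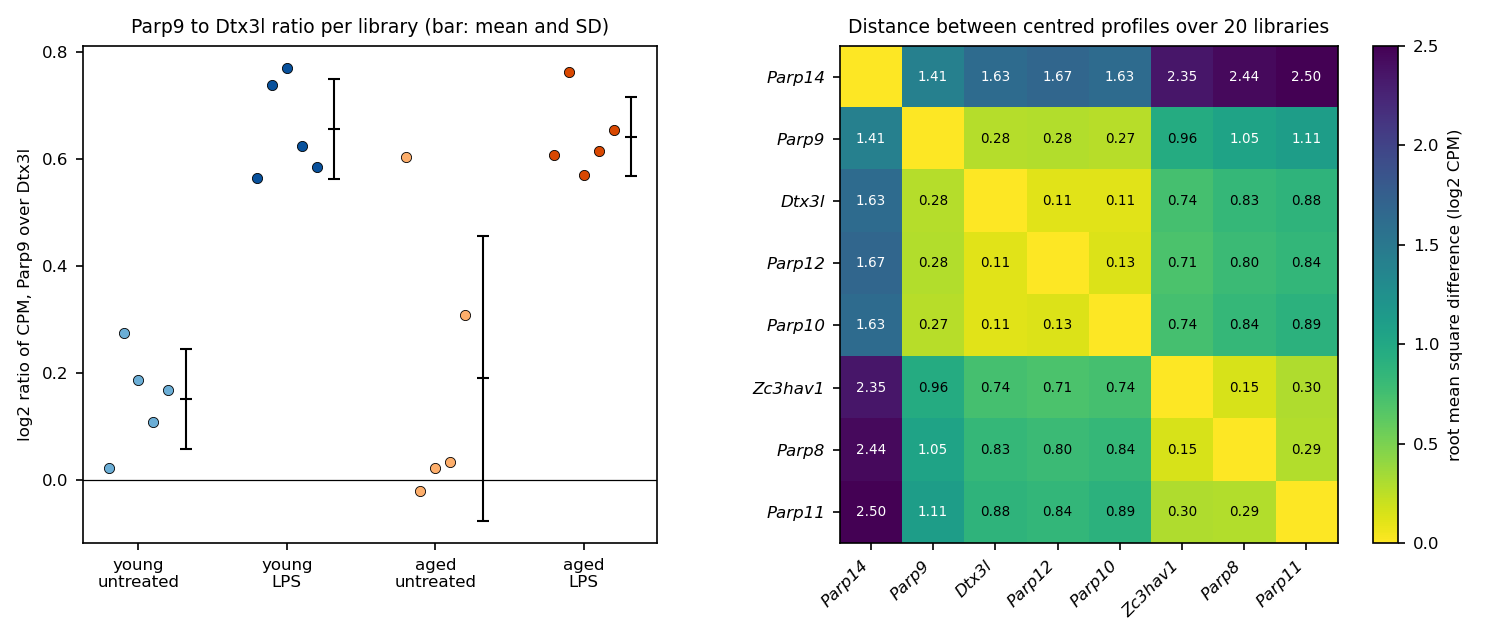
Left, log2 ratio of *Parp9* to *Dtx3l* CPM in every library, with the mean and SD of each group of 5; right, root mean square difference (log2 CPM) between the centred profiles of each pair of members over 20 libraries. Ratios sit higher with LPS apart from aged untreated replicate 1 at 0.60, and the smallest distances are among *Dtx3l*, *Parp12* and *Parp10* (0.11 to 0.13).

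The rest of the family did not move as a block. Of the 9 other PARP genes tested, 4 rose with LPS in both ages: *Parp3* (log2 fold change 1.54 in young and 0.90 in aged), *Parp16* (1.36 and 1.46), *Tiparp* (1.27 and 0.86) and *Parp4* (0.52 and 0.26). In young cells 4 fell, namely the DNA repair genes *Parp1* (-0.59) and *Parp2* (-0.31), *Parp6* (-0.28) and the tankyrase gene *Tnks2* (-0.22), and in aged cells *Parp1* (-0.38) and *Parp2* (-0.16) fell. *Parp3*, *Parp16* and *Tiparp* rose about as much as the members *Parp8* (1.28 and 0.97) and *Parp11* (1.27 and 0.60), or more. The median of the 9 was -0.01 in young and 0.07 in aged cells. None was called between aged and young untreated cells by edgeR, with 1 in each direction at an unadjusted p below 0.05 and none by DESeq2. Aged cells given LPS had less *Parp3* (-0.54), *Parp4* (-0.35) and *Tiparp* (-0.30) and more *Parp2* (0.24) and *Parp1* (0.19). The response was smaller in aged cells for *Tiparp* (difference -0.41, edgeR adjusted p = 0.00118) and *Parp3* (-0.63, edgeR adjusted p = 0.0294), and *Parp1* fell less (0.21, edgeR adjusted p = 0.0383).

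**Figure D5:**
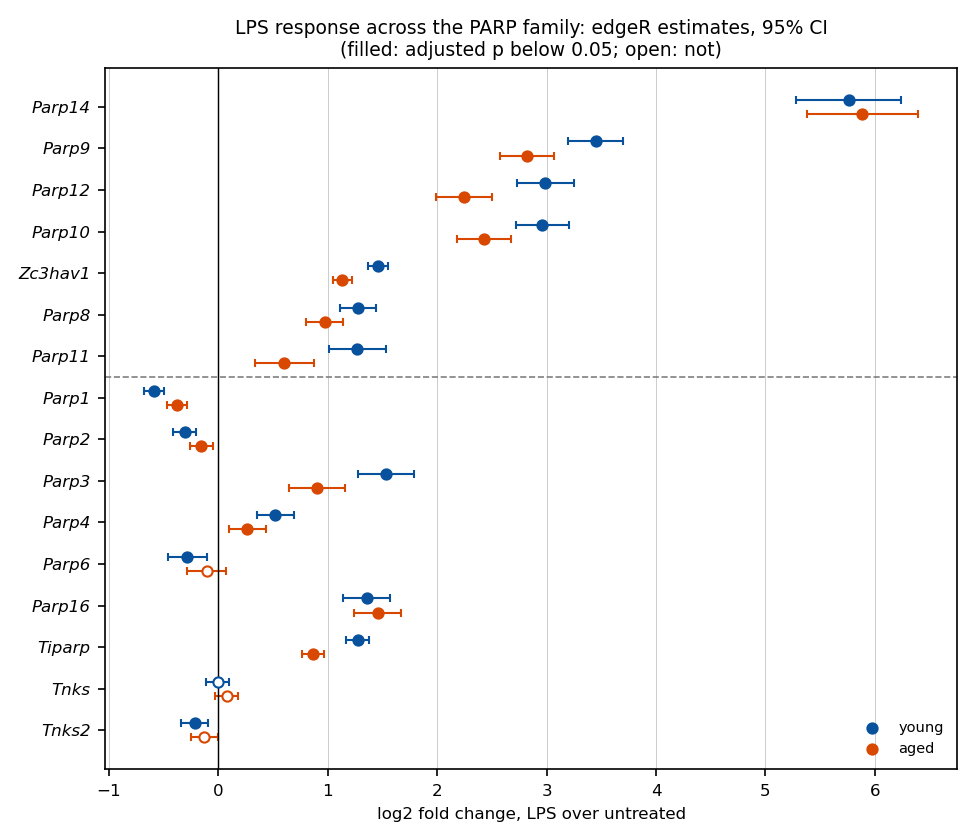
Log2 fold change of LPS over untreated in young (blue) and aged (orange) cultures with 95% confidence intervals from edgeR (filled points have an adjusted p below 0.05), for the 7 PARP members above the dashed line and 9 other PARP genes below it. All 7 above the line lie to the right of 0, from 0.60 to 5.89. Below it *Parp3*, *Parp16*, *Tiparp* and *Parp4* also lie to the right in both ages, *Parp1* and *Parp2* lie to the left and *Tnks* spans 0.

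Cofactors of ZAP and other deltex ligases moved in mixed directions. Among 3 cofactors of ZAP, *Trim25* (log2 fold change 1.62 in young and 1.31 in aged) and *N4bp1* (1.21 and 1.00) rose with LPS and *Khnyn* fell (-0.83 and -0.67). After LPS the aged cells had less *Trim25* (-0.48, edgeR adjusted p = 8.19e-06) and *N4bp1* (-0.39, edgeR adjusted p = 2.22e-04), and at rest less *Khnyn* (-0.28, edgeR adjusted p = 0.041). *Trim25* was also the one whose response was smaller in aged cells (difference -0.31, edgeR adjusted p = 0.0439). Of 4 other deltex ligases, *Dtx2* (0.78 and 0.56) and *Dtx4* (0.75 and 0.90) rose and *Dtx1* fell (-0.76 and -0.59) in both ages. With LPS, aged cells had more *Dtx1* (0.44) and less *Dtx2* (-0.31), and none of the 4 was called at rest or for the difference of responses, with 1 higher at rest at an unadjusted p below 0.05 and none by DESeq2.

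Enzymes that remove ADP-ribose moved in both directions with LPS. Over all genes tested, 31.2% were called higher and 33.5% lower with LPS in young cells, and 27.5% and 26.9% in aged cells. Of 6 tested, *Adprh* rose with LPS (log2 fold change 0.79 in young and 0.67 in aged), while *Macrod2*, *Oard1*, *Adprhl2* and *Parg* fell in young cells (-0.62 for *Macrod2* as the largest) and *Oard1*, *Adprhl2* and *Parg* fell in aged cells (-0.35, -0.24 and -0.17). Aged cells given LPS had more *Macrod2* (0.51), *Oard1* (0.22) and *Parg* (0.18) and less *Adprh* (-0.22). None of the 6 was called by edgeR at rest, with 1 higher and 2 lower at an unadjusted p below 0.05 and 1 higher by DESeq2, or for the difference of responses, with 1 higher at an unadjusted p and none by DESeq2. On the side of NAD, *Cd38*, which encodes an NAD-consuming ectoenzyme, rose by 3.49 in young and 2.85 in aged cells on the log2 scale, and *Nampt*, the rate-limiting enzyme of NAD salvage, by 0.98 and 0.72. *Nmnat3* fell in both ages (-0.39 and -0.44). Aged cells had less *Cd38* and *Nampt* at rest (-0.74 and -0.25) and after LPS (-1.39 and -0.52). No gene of this list of 4 was called by edgeR for the difference of responses, with 2 lower at an unadjusted p below 0.05 and 1 lower by DESeq2.

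In level after LPS, interferon pathway genes went the same way as the members. Calls for a smaller response in aged cells are given below, beside a share of 2.27% over all genes tested. Of 12 type I interferon signalling genes tested, 11 rose in young and 10 in aged cells, and 11 were lower in aged cells after LPS, *Stat2* (log2 fold change -1.34), *Irf7* (-1.15) and *Irf1* (-1.11) by most. At rest 4 of the 12 were lower in aged cells, *Irf7*, *Tyk2*, *Ifnar1* and *Irf3*. The response was smaller in aged cells for *Stat2* (difference -1.23, edgeR adjusted p = 0.0155) and *Irf1* (-0.85, edgeR adjusted p = 0.0349). Of 22 other interferon-induced genes tested, all rose in both ages, all were lower in aged cells after LPS, and 9 were lower at rest (15 by DESeq2). *Ifit2* and *Oasl1* had smaller responses in aged cells by edgeR and none had a larger one. Among the 22, the estimated differences of responses had both signs. Their SE reached 7.13 for *Ifi44* and 2.43 for *Mx1*, so a missing call does not show that the responses were alike. At an unadjusted p below 0.05 the difference of responses was lower for 4 and higher for 2, and DESeq2 called 4 lower and 1 higher. Several of the 22 were near the floor of detection at rest, so no summary of their fold changes that involve untreated cells is given. Between aged and young cells given LPS, the median log2 fold change was -1.45 for the 22. It was -0.73 for the 12 signalling genes and -0.94 for the members.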

How the data were processed

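Poly(A) RNA of 20 BV-2 cultures was sequenced as stranded libraries by the authors, who aligned reads to GRCm38 with STAR (2.6.1d) and counted them per Ensembl gene with featureCounts (1.5.1). Settings for strand and overlapping genes are not given in the sources used here. The deposited values are raw counts, 11371508 to 16829292 per library, and floors cover counting error only. Columns were assigned to groups by names that match the labels. Symbols came from GENCODE M21 (55227 of 55487 identifiers matched).

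edgeR 4.0.16 (R 4.3.3) was run on all 20 libraries with group as the only factor, TMM scaling and filterByExpr, which kept 12799 genes. The quasi-likelihood F-test was adjusted by Benjamini-Hochberg over all of them, and adjusted p below 0.05 was called. CPM used TMM-scaled library sizes. The ratio of *Parp9* to *Dtx3l* was compared by an exact permutation test. Scripts were tested on simulated data.

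Replicate numbers are batch numbers in the labels, with 1 culture of each group per batch, so the numbers pair the cultures. After subtraction of the group mean, cultures with the same number correlated across genes at 0.146 on average (0.122 to 0.394 within an age, -0.214 to 0.275 between ages), and cultures with different numbers at -0.0358. Chi-square per degree of freedom was 2.31 to 24.4 in the 40 pairs of replicates, so no pair was as close as counting noise alone would give. Alternatives were DESeq2 1.42.0, the replicate block, other scalings and filters, only the groups compared and leaving out each culture. Leaving out each batch was added after seeing the data.

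Members and gene lists were chosen with earlier results of these data known. Every member is named in every comparison. From other lists (other PARP genes, ADP-ribose removal, ZAP cofactors, other deltex ligases, type I interferon signalling, other interferon-induced genes, NAD supply and use), up to 4 genes with the largest change among those called are named per comparison, and further ones named were chosen after their values were seen. For each member the 3 genes with the nearest profile are named. Some items are not reported here.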

Additional observations from a re-analysis of the deposited data

Results flagged for a closer look

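In aged cells given LPS, *Parp14* stood at 546 CPM in replicate 3 and at 260 to 303 CPM in the other 4 cultures. On the log2 CPM scale the gap to the next culture was 0.791 of the range of the group, above the limit of Dixon's test for 5 samples. Of 32 groups of members examined in this way, chance marks about 1 in 20. Without that culture *Parp14* was lower in aged than in young treated cells by a log2 fold change of -1.59, against -1.34 with it.

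The response to LPS differed between aged and young cells in the interaction test for 5 members: *Zc3hav1* (-0.33 on the log2 scale, aged minus young), *Parp12* (-0.75), *Parp11* (-0.67), *Dtx3l* (-0.55) and *Parp9* (-0.63). These 5 calls come from edgeR, with adjusted p of 0.00181, 0.00924, 0.027, 0.0431 and 0.0219. None of these calls held without batch 2, where the 5 differences ran from -0.64 to -0.29.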

How the results depend on the processing

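Of 992 values of members under the alternatives, 916 kept their direction and their side of the threshold, 41 lost and 28 gained a call, and 7 turned sign. All 8 calls with LPS held in both ages under every alternative run, and 7 or 8 of the 8 held between aged and young treated cells. Members called lower in aged untreated cells numbered 2, but 4 with DESeq2, with the replicate block in edgeR or DESeq2 and with no filter, 5 with only the groups compared, and 1 to 3 with cultures or batches left out. Smaller responses in aged cells numbered 5, and 0 to 7 with cultures or batches left out. The replicate block changed no other call of a member than those of *Parp9* and *Parp10*.

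Sign changes were limited to values near 0. *Parp8* between untreated groups (0.01) became -0.0397 without young untreated replicate 1, -0.0365 without aged untreated replicate 5, -0.0355 without replicate 1 and -0.0362 without replicate 5, and was at most 0.0778 (without replicate 3). *Parp14* for the difference of responses (0.13) became -0.0638 without young untreated replicate 1, -0.122 without aged LPS replicate 3 and -0.248 without replicate 3, and was at most 0.314 (without replicate 2).

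The rise of the *Parp9* to *Dtx3l* ratio was 0.504 in young and 0.451 in aged cells, each with an adjusted p of 0.125 in the paired sign-flip test with the replicate block. With cultures left out it ranged from 0.471 to 0.534 and from 0.399 to 0.555. Aged minus young ranged from -0.0662 (without aged untreated replicate 1) to 0.09 at rest. With LPS it ranged from -0.045 to 0.0134, turning positive without young LPS replicate 2 (0.00575) or 3 (0.0134) or aged LPS replicate 3 (0.00282).

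Scaling by library sizes alone moved the median of all genes to -0.23 for LPS in young and -0.16 in aged cells, and members' log2 fold changes fell alongside, with no call changed. The TMM factors, which that scaling leaves out, were 0.891 to 0.931 in young LPS and 0.952 to 0.973 in aged LPS libraries. In untreated libraries they were 1.04 to 1.08. What made the factors differ, and the cause of the other changes in this section, was not tested. Counts of the members (73 or more in every library) were well above the floor of 3 counts.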
